A study of Mus musculus with 6 samples.

Results

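The 10 genes described here encode brakes on T cell receptor signalling: Pag1, Csk, Ptprc, Ptpn6, Ptpn22, Cbl, Cblb, Ubash3a, Dgka and Dgkz. They were chosen by name, as a group with a shared role, from the 21631 protein-coding genes of the annotation. Accessible DNA, where a transposase can cut, was mapped by ATAC-seq in 6 thymus libraries from mice of 4 weeks whose background was a mix of the BALB/C and C57BL6 strains. The p53 AD/- mice carry 1 AD allele, whose product the series calls dimeric, together with 1 null allele. The p53 -/- mice lack p53, so a null allele is common to both genotypes. Each genotype had 3 libraries, numbered here in the order of deposition. The design asked which regions were open in thymus with dimeric p53 and not in thymus without p53, or the reverse.

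When a T cell receptor is engaged, Src-family kinases phosphorylate it and start a cascade that ends in calcium release and diacylglycerol signalling. The brakes act at successive steps. Csk phosphorylates the inhibitory tyrosine of Lck and Fyn and is held at the membrane by the adaptor Pag1, phosphatases remove activating phosphates, Cbl proteins attach ubiquitin to signalling components, and diacylglycerol kinases consume the lipid messenger. In the thymus these steps bear on how strongly a developing T cell reads self peptides during selection.

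Each deposited list gives the position of every peak summit of a library and a score. A locus here is the gene body with 50 kb on each side. Summits were extended by 250 bp per side and overlapping windows of the 6 libraries were merged into regions. The 10 loci held 268 of 73702 regions. The libraries held 44496 to 60160 summits, with p53 AD/- library 3 the shortest list. Thymocyte markers fitted the tissue label, with a summit within 1 kb of a gene end for 7 of 7 markers in every library. The list includes Cd3e, which is also among the activating components below. Of 5 myeloid markers, 0 to 2 had one in p53 AD/- libraries and 2 in each p53 -/- library, and Csf1r, Lyz2 and Adgre1 had none. Of 5 thymic epithelial markers, 1 to 2 had one in p53 AD/- libraries and 2 to 3 in p53 -/- libraries. Of 5 erythroid markers and of 5 endothelial and mesenchymal markers, 2 had one in every library of both genotypes and 3 had none, among them Hbb-bt, Cdh5 and Pecam1 (the last also among the further negative regulators below). The part of these other cells in the values below was not tested. In whole thymus, fewer cells of a type and less open chromatin per cell cannot be told apart. Nothing in the labels says that the libraries came from different mice, so p-values refer to these libraries and cannot be extended to mice. Depth is unknown, because the lists hold no read counts.

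For 7 members the letters under the summit at the annotated start are shown first, because they are the sequence that was open in every library and because the members differ in kind. Starts of Csk and Dgka and the downstream start of Dgkz also had a summit in every library and are not shown. The sequences are RefSeq promoter sequences on GRCm38.p6, written 5′ to 3′ on the strand of the gene. Capitals mark the span from the lowest to the highest summit position over the 6 libraries, with up to 40 bases on each side.
Cbl (chr9:44234067-44234168, minus strand): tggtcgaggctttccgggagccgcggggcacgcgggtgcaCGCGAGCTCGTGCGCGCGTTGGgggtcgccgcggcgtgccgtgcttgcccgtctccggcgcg
Dgkz (chr2:91963626-91963758, minus strand): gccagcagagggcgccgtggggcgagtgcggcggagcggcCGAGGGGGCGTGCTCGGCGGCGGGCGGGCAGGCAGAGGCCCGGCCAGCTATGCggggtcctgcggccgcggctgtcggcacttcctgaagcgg
Cblb (chr16:52031355-52031521, plus strand): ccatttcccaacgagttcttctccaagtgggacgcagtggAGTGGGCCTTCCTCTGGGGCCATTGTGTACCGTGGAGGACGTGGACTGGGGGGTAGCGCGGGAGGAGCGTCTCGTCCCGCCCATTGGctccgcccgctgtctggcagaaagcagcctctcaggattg
Ptpn6 (chr6:124738802-124738948, minus strand): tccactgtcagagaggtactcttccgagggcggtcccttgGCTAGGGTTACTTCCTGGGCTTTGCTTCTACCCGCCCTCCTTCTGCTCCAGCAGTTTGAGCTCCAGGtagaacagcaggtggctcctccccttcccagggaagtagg
Ubash3a (chr17:31207945-31208083, plus strand): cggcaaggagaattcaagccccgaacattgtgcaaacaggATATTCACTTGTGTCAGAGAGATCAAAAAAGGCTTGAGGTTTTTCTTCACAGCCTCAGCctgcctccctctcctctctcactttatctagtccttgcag
Ptpn22 (chr3:103860157-103860323, plus strand): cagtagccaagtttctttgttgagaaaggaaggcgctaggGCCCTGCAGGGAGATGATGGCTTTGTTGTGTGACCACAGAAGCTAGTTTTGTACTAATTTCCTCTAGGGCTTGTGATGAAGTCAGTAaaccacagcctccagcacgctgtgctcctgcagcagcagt
Ptprc (chr1:138175240-138175335, minus strand): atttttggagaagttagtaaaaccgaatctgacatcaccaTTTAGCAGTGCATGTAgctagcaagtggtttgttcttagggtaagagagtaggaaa

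These 7 starts ran from CpG-rich to AT-rich. In the promoter windows of 300 bases, from 250 before to 50 after the start, Cbl had 74.0% GC with 43 CpG dinucleotides, and Dgkz 77.7% with 43. Cblb had 61.3% with 17 and Ptpn6 61.7% with 8. Ubash3a had 54.7% with 6 and Ptpn22 48.7% with 3. Ptprc had 33.7% with 4 at its upstream start and 39.3% with 2 at its downstream start. Of the starts not shown, Dgka had 70.7% with 28 at 128743878, Csk 66.3% with 24 at 57645653, and Dgkz 61.7% with 10 downstream. The median over 21020 promoter windows of protein-coding genes was 56.7% GC and 13 CpG. Among the 7 shown, Cbl, Cblb and Dgkz (upstream start) lay above both medians, and Ubash3a, Ptpn22 and Ptprc lay below both. Ptpn6 lay above the GC median and below the CpG median.

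At 8 of the 9 members with a promoter window, all 6 libraries had the best summit of the region at the start inside such a window, though other regions of the locus could score higher. This was so in 10 of the 16 windows of these 9 genes. The core letters AGGAAG, which ETS-family factors can bind, occurred on either strand in 8 of these 10 windows. They occurred in 12 of the 16 member windows, and in 34.1% of all 21020 windows, which were not chosen for a summit. In the Ptpn6 sequence above they are read as CTTCCT, 2 bp from the median summit. The longer ETS letters CCGGAAG occurred in 0 of 10 windows, and in 11.7% of all windows. The RUNX letters TGTGGT occurred in 1 of the 10, that of Ptpn22, and in 14.7% of all windows. There they were read on the other strand as ACCACA at 3 places, 133 and 16 bp upstream and 40 bp downstream of the median summit, the last 2 inside the printed stretch. The GC box letters GGGCGG occurred in 6 of 10 windows, and in 46.6% of all windows. CCAAT, the E-box CAGCTG and the GATA letters AGATAA each occurred in 2 of 10, and in 38.5%, 15.7% and 9.69% of all windows. A single p53 half-site occurred in 4 of 10 windows, those of Ptprc (downstream start), Ptpn22, Cblb and Dgkz (downstream start), and in 7.37% of all windows. A pair of half-sites with a spacer of at most 13 bases occurred in 0 of the 16 member windows, and in 10 of 21020 windows. Windows of the same gene can overlap and then share matches, and a match is a description of letters only.

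**Figure D1:**
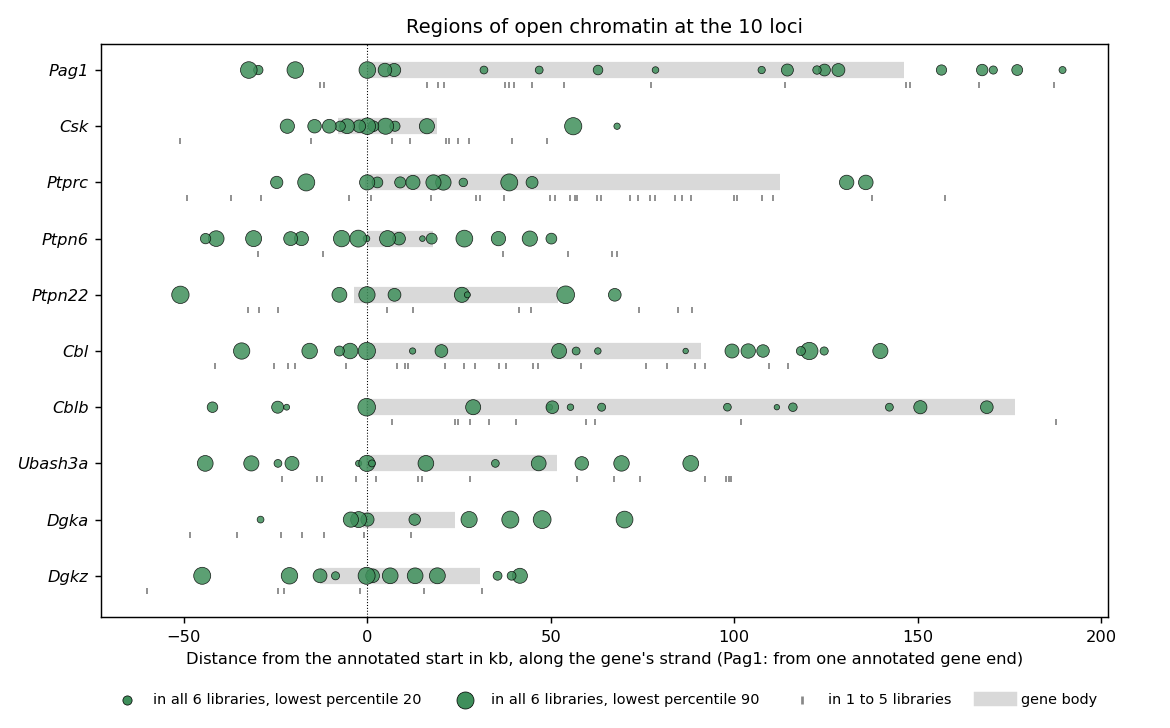
Regions of open chromatin along the 10 loci, as distance in kb from the annotated start whose region scored highest (for Pag1, from the gene end described below). Green circles are regions with a summit in all 6 libraries, larger for a higher lowest score percentile, grey ticks are regions in 1 to 5 libraries, and grey bars are gene bodies. The 137 shared regions are spread over gene bodies and flanks at every locus, and a circle sits at or near 0 kb in every row.

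Most of the regions at these loci were shared by all libraries. Of the 268 regions, 137 (51.1%) had a summit in all 6 libraries, close to the 52.1% of all 73702 regions. Shared regions numbered 5.14 per 100 kb at Ptpn22 and 13.6 per 100 kb at Ptpn6, with the other 8 loci between these values. The median over all protein-coding genes was 2.71 per 100 kb, and the 10 loci stood at the 73.0 to 99.5 percentile of genes. Windows of neighbouring genes share regions, and the Ptpn6 window also holds 7 other genes. Ptprc had the lowest shared fraction, 13 of 42 regions (31.0%), and Ptpn6 the highest, 16 of 22 (72.7%).

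**Figure D2:**
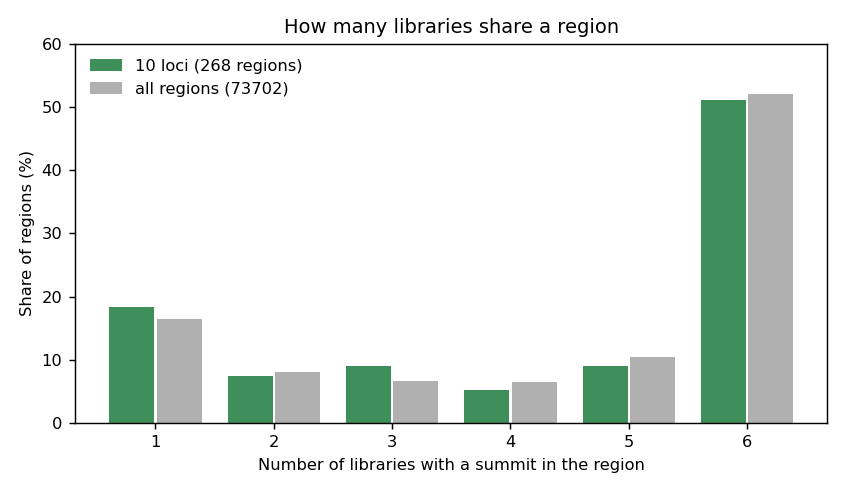
Share of regions, in percent, by the number of libraries with a summit, for the 10 loci (green, 268 regions) and for all regions (grey, 73702). Both have their highest bar at 6 libraries, with 51.1% and 52.1%, and the next at 1 library, with 18.3% and 16.4%.

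Regions were sorted by their place in the locus. Among those within 1 kb of a member's own annotated start, 11 of 13 were in all 6 libraries. The count was 56 of 124 for other regions inside the members and 45 of 94 for those outside them and away from gene ends. At the start or end of another gene it was 22 of 33, and at a member's own end with no start nearby 3 of 4. The median score percentile of the shared regions was 81.7 at the members' own starts, 81.5 at the starts or ends of other genes, 66.0 at the members' own ends, 46.0 inside the genes and 64.9 outside. The percentile ranks each summit by score among the summits of the same library, so that the top summit has 100. Lists of different length give ranks that show no change between libraries, so percentiles are described and not tested.

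Csk, the kinase that inactivates Src-family kinases, and Pag1, its membrane anchor, were both open at a gene end or start. Csk lies on chromosome 9 from 57626646 to 57653631 on the minus strand (GRCm38). Its main summit lay 55 bp downstream of the inner annotated start, with percentiles of 85.5, 88.3 and 84.8 in p53 AD/- libraries 1, 2 and 3, against 88.5, 88.2 and 87.7 in p53 -/- libraries 1, 2 and 3. The groups overlapped. The summit was at the same base, 57645608, in 5 of the 6 libraries. The outer start had a weaker summit 657 bp inside the gene, with percentiles of 51.4, 51.5 and 27.0 in p53 AD/- libraries and 41.3, 47.0 and 42.6 in p53 -/- libraries. The inner start thus held the higher score in each of the 6 libraries. Inside Csk, 8 of 10 regions were shared by all libraries. The strongest region of the window, with percentiles from 92.0 to 95.5, lay 64 bp from a start of Ulk3.

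Pag1 lies on chromosome 3 from 9687479 to 9833684 with no other protein-coding gene in its window. A summit 68 bp inside one annotated end had percentiles of 88.2, 91.3 and 85.5 in p53 AD/- libraries, against 90.5, 89.4 and 88.6 in p53 -/- libraries. The values of the genotypes overlapped. Beyond that end lay strong distal regions at 19.6 and 32.2 kb outside the gene. The nearer had percentiles of 90.9, 93.4 and 84.7 in p53 AD/- libraries and 88.7, 90.5 and 93.1 in p53 -/- libraries. The farther had 91.4, 92.6 and 85.4 in p53 AD/- libraries and 91.9, 92.4 and 93.4 in p53 -/- libraries. Both distal regions scored above the gene end in p53 AD/- libraries 1 and 2 and p53 -/- libraries 2 and 3. Inside the gene, 12 of 22 regions were shared, with median percentiles from 22.5 to 89.0.

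The phosphatase genes had their strongest own regions in different places. Ptprc encodes CD45, a receptor phosphatase of all nucleated blood cells that can both activate Lck, by removing its inhibitory phosphate, and restrain it. It lies on chromosome 1 from 138062859 to 138175756 on the minus strand, with no other protein-coding gene in its window. Its start had percentiles of 71.4, 77.5 and 69.7 in p53 AD/- libraries and 75.4, 77.8 and 76.5 in p53 -/- libraries, within 15 bp of each other (capitals in the Ptprc sequence above).

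The strongest Ptprc region lay 16577 bp upstream of the start, near position 138191882. There the percentiles were 97.0, 95.5 and 90.3 in p53 AD/- libraries and 94.5, 93.6 and 96.1 in p53 -/- libraries. A second lay inside the gene, 38542 bp downstream of the inner start, with 91.6, 91.3 and 89.9 in p53 AD/- libraries and 93.9, 92.4 and 90.8 in p53 -/- libraries. Both stood above the start in every library. The locus also had 13 regions in a single library and 16 in 2 to 5 libraries.

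Ptpn6 encodes SHP-1, a cytoplasmic phosphatase recruited by inhibitory receptors, and lies on chromosome 6 from 124720707 to 124738709 on the minus strand. At its single start in the promoter table the summit was weak, with percentiles of 19.5, 29.0 and 6.17 in p53 AD/- libraries and 29.1, 18.96 and 22.8 in p53 -/- libraries. A region inside the gene, 5573 bp downstream of that start, was much stronger. It had percentiles of 85.5, 82.6 and 78.8 in p53 AD/- libraries and 84.8, 86.0 and 84.6 in p53 -/- libraries. A further region lay 6930 bp upstream of the start, where the 6 summits fell within 2 bp of each other. It lay inside the neighbouring gene Atn1, 3095 bp from an end of that gene and 4570 bp from a start of Grcc10. Both are nearer than Ptpn6, and which gene the region serves was not tested. The percentiles of this region were 85.8, 88.6 and 82.9 in p53 AD/- libraries and 87.1, 90.4 and 86.3 in p53 -/- libraries. The highest-scoring regions of the window lay at neighbouring genes. One, 47 bp from an annotated end of Grcc10, had percentiles from 88.6 to 92.4 with a median of 90.3, and the other, 34 bp from an end of Emg1, had 87.4 to 92.7 with a median of 91.3.

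Ptpn22 encodes a lymphoid phosphatase that works together with Csk, and lies on chromosome 3 from 103856575 to 103912252 on the plus strand. It had no summit within 1 kb of either end of its gene model in any library. A summit lay 37 bp upstream of an annotated start inside the model, with percentiles of 87.2, 86.8 and 81.4 in p53 AD/- libraries and 87.1, 84.6 and 88.2 in p53 -/- libraries. The values overlapped between genotypes. A region 47.1 kb outside the gene, at the start of Dclre1b, had its summit at the same base, 103809433, in all 6 libraries. The strongest region of the window was beside the start of Rsbn1, with percentiles from 98.4 to 99.6.

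Cbl and Cblb, ubiquitin ligases that mark receptor components for removal, had the highest-scoring starts of the set. Cblb lies on chromosome 16 from 52031230 to 52208047. Its start had percentiles of 98.9, 98.4 and 97.0 in p53 AD/- libraries, against 98.6, 98.5 and 98.7 in p53 -/- libraries. Cbl lies on chromosome 9 from 44142976 to 44234259. Its start had percentiles of 94.7, 94.1 and 93.9 in p53 AD/- libraries, against 97.1, 97.9 and 93.2 in p53 -/- libraries. At both starts the genotypes overlapped. A region 553 bp from an end of Rnf26 had percentiles from 93.4 to 95.8, with a median of 93.7, against 94.4 at the Cbl start. Inside Cblb 12 of 21 regions were shared, and inside Cbl 7 of 21. Apart from the start, the highest-scoring shared region inside Cblb, 28889 bp downstream of the start, had percentiles from 68.4 to 79.5.

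Ubash3a encodes TULA, a relative of histidine phosphatases with a ubiquitin-binding domain that is made mainly in T cells, and lies on chromosome 17 from 31207868 to 31259681. Its start had percentiles of 81.8, 81.9 and 80.7 in p53 AD/- libraries and 80.3, 81.5 and 82.3 in p53 -/- libraries. This was the narrowest spread of any member's start except that of Cblb. A region 16010 bp downstream of the start had percentiles from 75.3 to 82.8. In contrast to the score, the summit position varied by 58 bp, and it fell at 31208042 or 31208043 in 4 libraries.

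**Figure D3:**
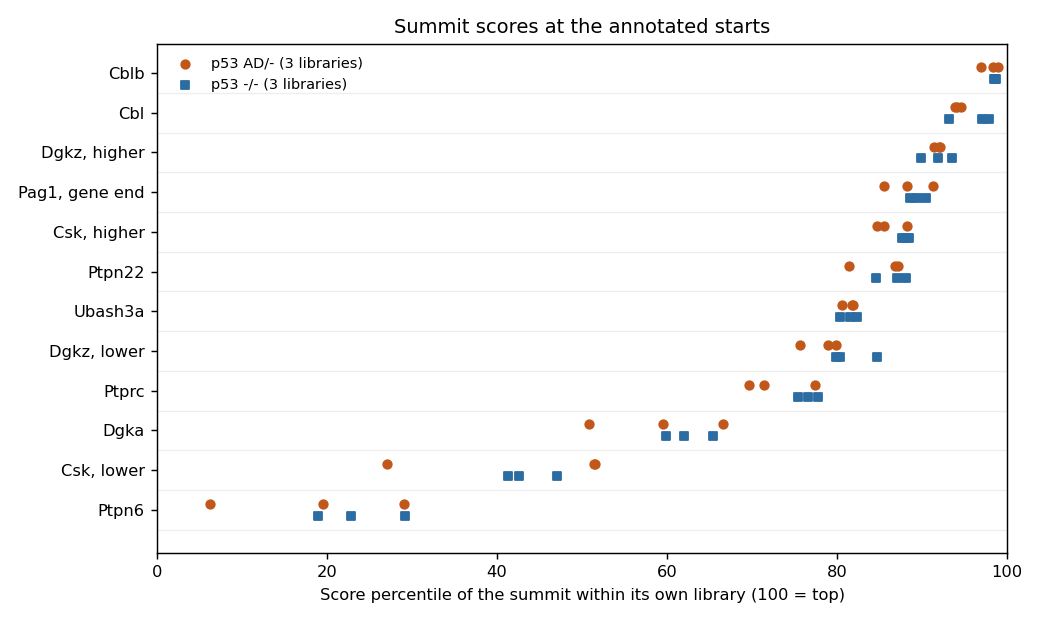
Score percentile, within its own library, of the summit at each annotated start (Pag1: gene end), for 3 p53 AD/- libraries (orange circles) and 3 p53 -/- libraries (blue squares). Where a gene has 2 starts with a summit, "higher" and "lower" name the start with the higher and the lower percentile. Cblb is at the top with 97.0 to 98.9 and Ptpn6 at the bottom with 6.17 to 29.1, and the symbols of the genotypes overlap in every line.

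The diacylglycerol kinases remove the lipid that activates Ras and protein kinase C. Dgkz, on chromosome 2 from 91932822 to 91976443 on the minus strand, was open at 2 annotated starts. The upstream one had percentiles of 91.4, 92.1 and 92.0 in p53 AD/- libraries and 91.9, 93.6 and 89.9 in p53 -/- libraries. The downstream one had percentiles of 79.9, 78.9 and 75.6 in p53 AD/- libraries and 80.3, 84.7 and 79.9 in p53 -/- libraries. A distal region 32.0 kb outside the gene had 92.9, 90.6 and 89.6 in p53 AD/- libraries and 92.6, 93.7 and 92.2 in p53 -/- libraries. It was as high-ranked as the upstream start. Its nearest gene end is that of Creb3l1, 15700 bp away and so nearer than Dgkz, and which gene the region serves was not tested.

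Dgka lies on chromosome 10 from 128720131 to 128745084 on the minus strand, with 4 annotated starts. A region at the starts near 128743878 and 128744076 was found in all libraries, with percentiles of 59.5, 66.6 and 50.8 in p53 AD/- libraries and 62.0, 59.9 and 65.4 in p53 -/- libraries. Its best summit was between 128743902 and 128743907 in the 3 p53 AD/- libraries and p53 -/- library 2, and at 128744058 in p53 -/- libraries 1 and 3. A second region, 189 bp from the outermost start, was found in 4 libraries. These were p53 AD/- libraries 1 and 3, with percentiles of 53.3 and 53.5, and p53 -/- libraries 1 and 2, with 56.8 and 58.7. A stronger region lay 1292 bp upstream of that start, with percentiles from 78.1 to 86.3. The top region of the window, beside the start of Rab5b, reached at least 99.5 in every library.

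No region of the 10 loci followed genotype in all libraries. A summit in all 3 p53 AD/- libraries and no p53 -/- library was found in 0 of 268 regions, where the share over all regions was 0.179%. The opposite pattern was found in 0 of 268, where the share was 0.418%. At these shares few or none of 268 regions would carry either pattern, so the zeros do not set the loci apart. A single region with 3 libraries against 3 cannot go below p = 0.10 in an exact test.

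When 2 libraries of a genotype sufficed, against 0 of the other, 4 regions were in p53 AD/- alone (1.49%, against 1.51% of all regions) and 7 in p53 -/- alone (2.61%, against 2.37%). Both shares were near those of all regions. Their percentiles ran from 0.188 to 30.6, and each was absent from 1 library of its own genotype. The p53 AD/- regions were weak. At Pag1, p53 AD/- libraries 1 and 2 had a summit 521 bp outside the lower gene end (percentiles 2.63 and 5.51) and another near 9817398 inside the gene (1.90 and 4.07). At Ptprc, p53 AD/- libraries 1 and 3 had a summit 1852 bp inside the lower gene end (4.799 and 4.12), and at Dgka, libraries 1 and 2 had one 10615 bp upstream of the outermost start (2.01 and 10.05). The p53 -/- regions included 3 at Pag1, in libraries 2 and 3. They lay near 9667100 (10.1 and 14.2), 9812684 (0.188 and 5.14) and 9846594 (7.55 and 5.80). Libraries 1 and 3 of p53 -/- had a region 1177 bp from an end of Eno2 in the Ptpn6 window (12.96 and 2.76) and a region near 31282294 in the Ubash3a window (3.86 and 0.595). The highest-ranked p53 -/- region was in the Cbl window, 951 bp from an annotated end of Nlrx1, with 22.6 and 30.6 in p53 -/- libraries 1 and 2. The next, 12.2 kb outside Ubash3a, had 24.5 and 21.1 in p53 -/- libraries 2 and 3. For 3 of the 11 regions the nearest summit of the other genotype was less than 2 kb away.

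Most regions missing from a single library were missing from p53 AD/- library 3, the shortest list. Of the 24 regions found in exactly 5 libraries, 18 (75.0%) lacked p53 AD/- library 3, as did 73.2% of such regions genome-wide. Among them was a region 9.81 kb outside Dgkz with its summit at base 91986250 in all 5 other libraries. Of the 49 regions in a single library, 16 (32.7%) were in p53 -/- library 3 and 14 (28.6%) in p53 AD/- library 2, the longest lists. Genome-wide these libraries held 19.9% and 28.2% of such regions.

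The number of summits over the 10 loci was 194, 215 and 153 in p53 AD/- libraries 1, 2 and 3, against 189, 203 and 213 in p53 -/- libraries 1, 2 and 3. The means were 187 ± 31.5 in p53 AD/- and 202 ± 12.1 in p53 -/- (SD, n = 3 each; exact two-sided permutation p = 0.7, smallest possible 0.10). As a share of the library's summits these were 0.352% ± 0.00726 in p53 AD/- and 0.360% ± 0.00981 in p53 -/- (exact permutation p = 0.3, n = 3 each). The direction in number of summits rested on p53 AD/- library 3: without it the mean number was 204.5 in p53 AD/- and 201.7 in p53 -/-. When only the 44492 summits with the best scores were kept per library, the counts were 151, 150 and 153 in p53 AD/- libraries and 146, 147 and 146 in p53 -/- libraries, so that the direction turned and the groups no longer overlapped (exact permutation p = 0.1, the smallest possible). Of this mean difference of 5 summits, the single locus Cblb gave 2.67, the largest part of any member. No background was counted for sums over 10 loci, so this separation does not set the loci apart.

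Locus by locus, 0 of 10 had every p53 AD/- library above or every p53 AD/- library below the p53 -/- libraries, where 0.337% and 1.22% of all 21631 gene loci did. The exact permutation test called 0 of 21631 gene loci at an adjusted p of 0.05 (Benjamini-Hochberg), and 0 passed 0.05 before adjustment, since 3 against 3 allows no p below 0.10. The widest difference was at Ubash3a, with 17, 19 and 15 summits in p53 AD/- libraries and 17, 20 and 25 in p53 -/- libraries (difference −3.67, exact permutation p = 0.3, n = 3 each). Dgka alone had the higher mean in p53 AD/-, with 13, 14 and 10 summits, against 12, 11 and 11 in p53 -/- libraries (exact permutation p = 0.6, n = 3 each). In lists of equal length Cblb had 16, 15 and 16 summits in p53 AD/- libraries and 11, 14 and 14 in p53 -/- libraries. By that count it was the 1 member whose groups did not overlap, as did 0.874% of all gene loci in that direction, and 0 members lay in the other direction, as did 1.06% of all gene loci.

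As a share of the library's summits, the groups did not overlap at Dgka and Pag1. At Dgka the shares were 0.0238%, 0.0233% and 0.0225% in p53 AD/- libraries, against 0.0222%, 0.0198% and 0.01896% in p53 -/- libraries, and 2.82% of all gene loci had every p53 AD/- library above. At Pag1 they were 0.0494%, 0.0499% and 0.04495% in p53 AD/- libraries, against 0.0517%, 0.0503% and 0.04999% in p53 -/- libraries, and 3.1% of all gene loci had every p53 AD/- library below. Each had an exact permutation p of 0.1, the smallest that 3 libraries against 3 allow, and neither separated by number of summits or in lists of equal length.

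**Figure D4:**
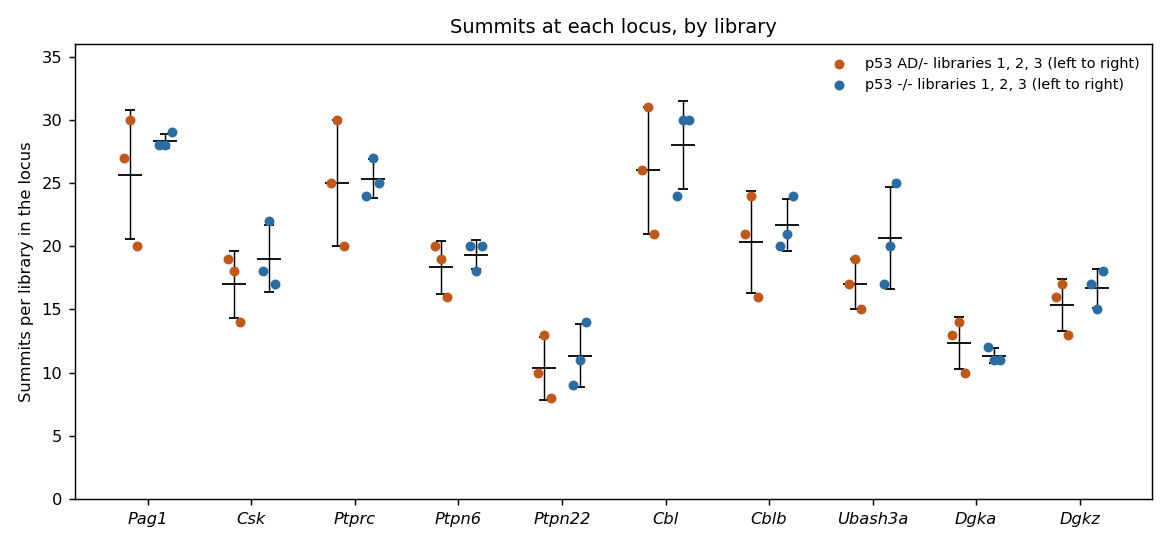
Number of summits per library at each locus, for p53 AD/- libraries (orange, left of each pair) and p53 -/- libraries (blue, right), with the mean as a dash and the SD as whiskers (n = 3 each). The groups overlap at all 10 loci, from Ptpn22 with 8 to 14 summits to Cbl with 21 to 31.

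The repeatability of summit positions was compared with that of all regions. Over the 137 shared regions the median distance between the outermost of the 6 summits was 54 bp, against 49 bp for all shared regions. It was at most 50 bp in 62 of 137 (45.3%), against 52.3% of all shared regions.

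Lists of other genes of the pathway were counted in the same way. A list of 40 further negative regulators, among them Ptpn2, Inpp5d, Cd5 and Sit1, held 600 regions, of which 328 (54.7%) were in all 6 libraries. In p53 AD/- alone (3 libraries against none) were 0 of these regions, and in p53 -/- alone 3. A list of 30 activating components, such as Lck, Zap70 and Lat, held 689 regions, of which 328 (47.6%) were in all 6 libraries. In p53 AD/- alone was 1 of these, and in p53 -/- alone were 3. Over all regions 52.1% were in all 6 libraries, 0.179% in p53 AD/- alone and 0.418% in p53 -/- alone. A summit at a gene end was found in every library for 8 of 10 brakes, 34 of 40 further negative regulators and 29 of 30 activating components, compared with 52.6% of all genes. The remaining brakes, Ptpn22 and Dgka, had a summit within 1 kb of an annotated start in all 6 libraries. Annotated starts were not counted for the other lists. The differences between these lists were not tested.

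The 7 genotype-specific regions of those lists were weak. The p53 AD/- region lay in the window of Prkcq, a protein kinase C of T cells, with percentiles from 6.18 to 18.5. The p53 -/- regions of the further negative regulators lay at Cd5 and Cd6, adjoining genes of receptors that dampen T cell receptor signals (14.1 to 15.3), at Dusp5, a phosphatase of ERK (12.99 to 25.8), and at Sit1, an inhibitory adaptor (6.77 to 8.49). Those of the activating components lay at Syk (21.3 to 23.2), Vav1 (0.0655 to 6.52) and Itpr1 (11.3 to 17.5). A summit of the other genotype was within 2 kb of the regions at Prkcq, Cd5 and Cd6, Dusp5 and Syk.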

How the data were processed

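Per the labels, 3 p53 AD/- and 3 p53 -/- thymus libraries were profiled by ATAC-seq. The authors deposited 1 summit list per library, so replicates were not pooled. The deposited score was read as the −log10 of a q-value, because it begins at 1.30 to 1.39 in every list. Per the submitters' processing notes, the tools were Bowtie2 2.3.4.2, MACS2 2.1.2, Picard 2.9.0 and Trim Galore 0.4.5, on build GRCm38. Their settings, any removal of duplicates and any shift of reads for the cut are not given in the sources used here. Scores rise with depth, which is unknown.

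Summits on chromosomes 1 to 19 and X were merged into regions as described (Python 3.11.15, pandas 2.3.3), and the steps were tested on simulated data. Genes came from RefSeq on GRCm38.p6. The promoter table gave starts for 9 of 10 members, not Pag1. On 809 overlapping window pairs of opposite strands its letters matched. Group differences were tested by exact permutation (two-sided, 20 ways to assign the libraries), adjusted over all gene loci (statsmodels 0.14.6). Alternatives were extensions of 100 and 500 bp, scores of at least 5, lists of equal length, flanks of 10 and 0 kb, gene ends within 500 bp or 2 kb, other rules for genotype-specific regions, and leaving out each library. All 10 members are named. Within a locus the text names the region at the start, the one whose lowest percentile over the 6 libraries is highest and those of a single genotype, and the other distal or inner regions were chosen after their values were seen. The members and lists were chosen with earlier results of these data known. One list of marker genes is not reported here.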

Additional observations from a re-analysis of the deposited data

How the results depend on the processing

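Members with a summit at a gene end in every library numbered 8, and 7 within 500 bp, 9 within 2 kb and 8 under the other alternatives run for that count. Flanks of 10 and 0 kb left 173 and 140 regions, of which 89 and 70 were in all 6 libraries, because fewer bases were searched. Regions specific to p53 AD/- numbered 0 in the full lists and 1 with lists of equal length (inside Cblb, near 52094933). With at least 2 of 3 against none, 4 were specific to p53 AD/- and 7 to p53 -/-. By that rule 1.51% and 2.37% of all regions were. With 1 library left out, fewer libraries must agree. Regions specific to p53 AD/- then numbered 0 to 3, and those specific to p53 -/- 0 to 5. For p53 AD/- there were 3 without its library 3 and 1 without its library 2. For p53 -/- there were 1 and 5 without p53 AD/- libraries 1 and 2, and 4, 2 and 1 without p53 -/- libraries 1, 2 and 3. The share of all regions was not counted for lists of equal length or with 1 library left out. Those counts therefore have no background beside them and do not set the loci apart. The difference in summits over the 10 loci, p53 AD/- minus p53 -/-, was −14.3. It was 5 with lists of equal length and −28.2 to 2.83 with 1 library left out. Single loci also turned. With lists of equal length the difference was 0.333 at Csk, Ptpn6 and Ubash3a, 1.33 at Cbl and 2.67 at Cblb. With scores of at least 5 it was −0.333 at Dgka, and as a share of the library it was 0.00155% at Ptprc and 0.000135% at Ptpn6. With 1 library left out it ran from −4.83 to 0.167 at Pag1, −2.83 to 2.17 at Ptprc, −1.83 to 0.167 at Ptpn6, −2.33 to 0.333 at Ptpn22, −4.5 to 0.5 at Cbl and −3.17 to 0.833 at Cblb. These ended above 0 without p53 AD/- library 3, at Ptprc also without p53 -/- library 2, and at Ptpn22 also without p53 -/- library 3. The cause was not tested. The share over the 10 loci and the count of loci whose shares do not overlap were added after seeing the data. No paired analysis was possible because the labels give no replicate numbers.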
